A study of Mus musculus with 6 samples.

Results

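Rab genes encode small GTPases that direct the traffic of vesicles between the membranes of a cell. All genes of the deposited table whose symbol is Rab followed by a number, with at most a letter and a further digit, were taken, which gave 48 of 12623 genes. A gene listed with several transcripts (7 of the 48) was represented by the transcript with the highest mean level. The rule used names only, and the family and the gene lists set beside it were taken up with earlier results of these data known.

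A Rab protein cycles between a GTP-bound state, in which it sits on a membrane and recruits effectors such as tethers and motors, and a GDP-bound state, in which it is held in the cytosol. Exchange factors switch it on, GTPase-activating proteins switch it off, and a prenyl group at its C-terminal cysteines anchors it. In endothelial cells (EC), Rab proteins of regulated secretion act on Weibel-Palade bodies, the storage granules that hold von Willebrand factor and P-selectin.

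Levels were measured by RNA-seq in EC sorted from lungs of C57BL/6N mice, in 3 infant and 3 young adult libraries from separate biological replicates. According to the study's methods, infant mice were in the second week after birth and young adult mice in about the third month, and living cells were sorted as CD31+ CD34+ after removal of cells with PTPRC, LYVE1, LY76 or PDPN. The labels name no treatment or transgene in either group, and the question was what changes as lung EC stop dividing and become quiescent. Values are RPKM, the reads of a transcript scaled to its length in kilobases and to 1000000 mapped reads, given below in the order of replicates 1 to 3.

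All 12 endothelial markers were detected in every library, with a summed RPKM of 3265.8 to 4876.0 in infant and 5321.5 to 5766.9 in young adult libraries. Markers of other cells were present as well. The 10 fibroblast markers summed to 1320.1, 360.6 and 950.7 RPKM in infant libraries against 12.7 to 25.9 in the young adult libraries, and the 9 mural markers to 232.0, 68.2 and 233.2 against 11.8 to 15.5. Epithelial markers summed to 6490.1 to 11348.0 RPKM in infant and 1834.9 to 8370.1 in young adult libraries, and leukocyte markers to 320.0 to 515.6 and 140.0 to 555.1. Globin transcripts held 11.03%, 3.41% and 23.5% of all RPKM in infant libraries and 0.307% to 0.487% in young adult libraries. Infant replicate 2 thus stood apart from the other 2 infant libraries. The Y-linked gene Ddx3y was at 20.6, 16.5 and 21.9 RPKM in each infant library in turn and listed at 0 in all 3 young adult libraries, although the methods name female mice, so age and sex cannot be told apart in any difference given here. In sorted bulk samples, fewer cells of a type and less RNA per cell cannot be told apart either.

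The members share the site at which the prenyl group is attached. In the GENCODE M21 annotation of GRCm38, each of the 48 genes had at least 1 cysteine codon among the last 4 codons before the stop, and 34 had at least 2. 14 genes ended in cysteine, any residue, cysteine, and 13 in a pair of cysteines. Another 14 had a cysteine codon only at the first of the last 4 positions, as in Rab8a. In Rab11a, which also has this pattern, the codon just before it encodes cysteine too. The coding sequences were 156 (Rab43) to 725 (Rab44) codons long, with a median of 215. The last 30 coding bases are shown for 3 abundant members of different routes (Rab7, Rab11a and Rab1), for the 3 members called between ages and for Rab3d, with cysteine codons in capitals:
Rab7: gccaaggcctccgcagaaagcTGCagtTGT
Rab11a: aagccaaaggtgcagTGCTGTcagaacatc
Rab1: ccagtcaagcagtcaggtggaggcTGCTGC
Rab27a: gaggagaaggagaaggggttgTGTggcTGT
Rab3d: ccacccccacagccgagcagcTGCagcTGT
Rab34: gccagcaagaaaaaggccacaTGTTGTccc
Rab36: aacaagaggccgcccggcctaggcTGCTGT
Rab27a and Rab3d, the secretory members described below, both end in the alternating arrangement, as does Rab7. Rab34 has a residue after its cysteine pair and Rab11a has several.

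Rab transcripts had a higher median level than all genes, and their summed RPKM, as scaled in the deposited values, overlapped between ages. Their summed RPKM was 841.3, 890.5 and 817.2 in infant libraries and 803.3, 837.9 and 857.7 in young adult libraries. The means were 849.7 ± 37.4 and 833.0 ± 27.5 (SD, n = 3 each), and the groups overlapped (exact two-sided permutation test, p = 0.6, where 0.1 is the smallest p that 3 against 3 libraries allow). As a share of all RPKM the members held 0.288% ± 0.0406 in infant and 0.298% ± 0.00662 in young adult libraries (SD, n = 3; exact permutation p = 1.0). The sum and the share both depend on the scaling of a library. Globin took up 3.41% to 23.5% of RPKM in infant and 0.307% to 0.487% in young adult libraries, which lowers other infant values. The summed Rab level with globin set aside was not tested. The median member had a mean RPKM of 8.74, against 6.12 over all genes. 44 of the 48 members had a mean of at least 1 RPKM, 22 of at least 10 and 6 of at least 50.

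The 10 most abundant members held 63.8% to 66.2% of all Rab RPKM in every library, and none of them belonged to regulated secretion. Rab7, which directs late endosomes to lysosomes, was the highest, at 94.7, 104.7 and 95.9 RPKM in infant and 84.9, 105.1 and 103.2 in young adult libraries. Rab11a, which returns cargo from recycling endosomes to the surface, followed with 74.0, 95.1 and 71.6 against 93.6, 86.2 and 94.5. The groups overlapped for both, and the ranges of Rab7 and Rab11a overlapped with each other, so their order is within the spread of the libraries.

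Rab18, known from the ER and lipid droplets, was the third at 71.7, 63.4 and 67.9 RPKM in infant and 63.2, 63.4 and 62.5 in young adult libraries. Rab31, of the trans-Golgi and endosomes, was at 55.5, 59.0 and 48.8 against 41.3, 49.5 and 50.9. Rab14, of endosome to Golgi traffic, was at 57.7, 57.6 and 49.1 against 46.1, 45.6 and 47.8. Rab31, Rab14 and Rab1 lay within each other's spread, and among these only Rab14 did not overlap between ages, with every young adult library below every infant one by a margin that missed the test (log2 fold change -0.23, adjusted p = 0.135).

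Rab1, which carries cargo from the ER to the Golgi, varied least of the 48 members (1.06-fold from its lowest to its highest library), at 49.5, 50.6 and 48.7 RPKM in infant and 51.5, 50.4 and 51.8 in young adult libraries. Its relative Rab1b was at 50, 42.1 and 36.4 against 26.0, 35.8 and 40.3. Rab8a, which brings vesicles to the plasma membrane, was at 34.2, 39.9 and 41.8 against 44.8, 45.1 and 42.9. Rab8a was thus higher in each young adult library than in any infant library, but its difference missed the threshold (log2 fold change 0.20, adjusted p = 0.200), and Rab1b overlapped.

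Rab4b, of fast recycling from early endosomes, was at 36.0, 35.9 and 31.5 RPKM in infant and 32.5, 34.7 and 36.5 in young adult libraries. Rab11b was at 33.6, 32.1 and 35.0 against 28.9, 32 and 30.8. The highest young adult value of Rab11b lay just under the lowest infant value, and its log2 fold change of -0.13 missed the threshold (adjusted p = 0.314).

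**Figure D1:**
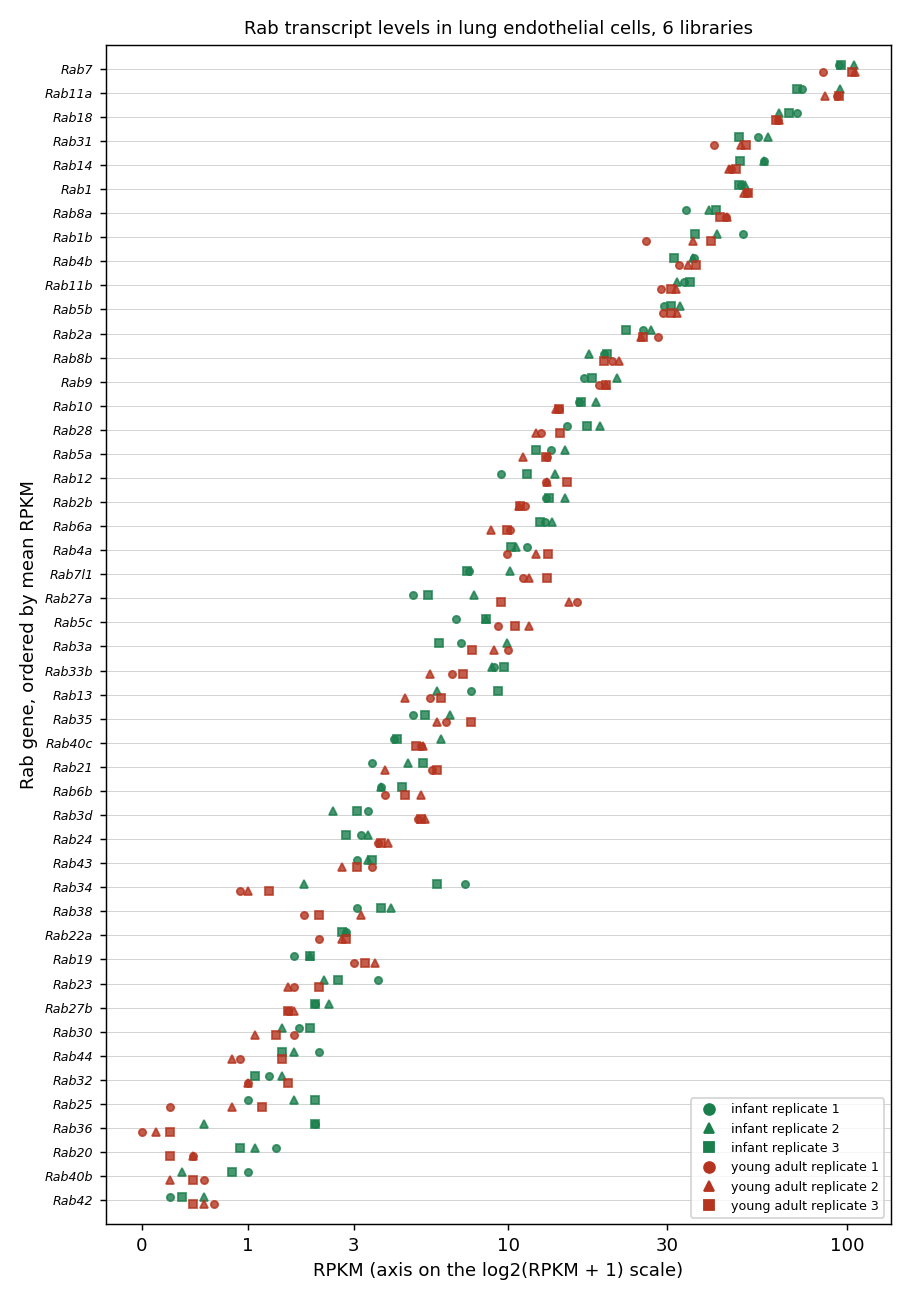
Level of each of the 48 Rab genes (rows, ordered by mean) in RPKM on a log2(RPKM + 1) axis, with 1 point per library, infant in green and young adult in red. Most members have overlapping groups over a range from 0.417 to 98.1 mean RPKM, while others, among them Rab27a, Rab34, Rab36 and Rab20, show separate groups.

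The share of Rab genes that differed between ages was set beside that of all genes. Differences were tested with limma on log2(RPKM + 1) over 12458 genes with at least 1 RPKM in a library. The log2 fold change is young adult minus infant, and a gene was called when its Benjamini-Hochberg adjusted p was under 0.05 and its change over 1.75-fold. Of 47 members tested (Rab42, at 0.2 to 0.6 RPKM, was below the filter), 3 were called (6.38%): Rab27a was higher in young adult EC, and Rab34 and Rab36 were lower. Over all genes 11.4% were called, 3.33% higher and 8.1% lower.

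Without the fold threshold, 10 members (21.3%) had an adjusted p under 0.05 against 25.5% of all genes, 4 of them higher (9.27% of all genes) and 6 lower (16.2%). The higher ones were Rab27a, Rab3d, Rab19 and Rab7l1, and the lower ones Rab34, Rab36, Rab20, Rab33b, Rab6a and Rab2b. In 19 members (40.4%) the groups did not overlap, 7 of them higher and 12 lower in young adult libraries, against 43.4% of all genes. By each of these counts the share of members was somewhat below that of all genes, a difference that was not tested. 20 members had a log2 fold change above 0 and 27 below, with a median of -0.08 against -0.07 over all genes, and the median size of the change was 0.23 against 0.24. For 37 of the 47 members (78.7%) the 95% interval lay within 1.75-fold in either direction, against 72.5% of all genes.

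The calls did not hold in most fits that left out a library, which also leaves fewer libraries in a group and so weakens every test. The 3 calls became 0 in limma when infant replicate 1, infant replicate 3, young adult replicate 1 or young adult replicate 2 was left out, with 14, 16, 13 and 11 members at an unadjusted p under 0.05, against 19 with all libraries. With all libraries, at least 25.5% of all genes also had an unadjusted p under 0.05. Leaving out young adult replicate 3 kept 1 call (Rab27a), and leaving out infant replicate 2 gave 3. 3 of the 47 members (Rab20, Rab36 and Rab40b) passed the filter through infant libraries only, and 0 through young adult libraries only. Where a mean of at least 1 RPKM was asked for instead, 44 members were tested, with 2 called (1 higher, 1 lower) and 8 at an adjusted p under 0.05 (4 higher, 4 lower). With a pseudocount of 5 in place of 1, all 3 changes lay below the fold threshold.

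**Figure D2:**
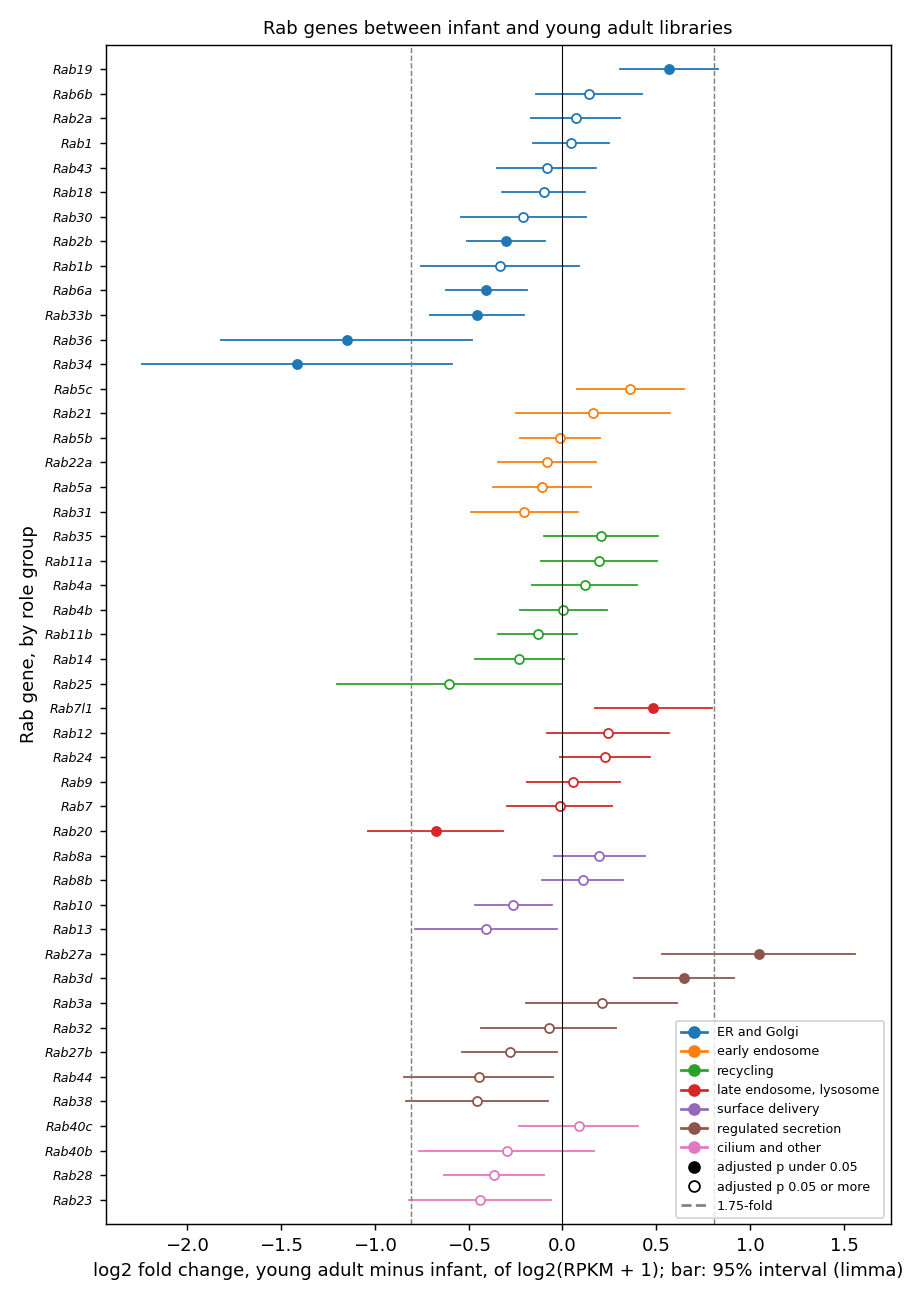
Log2 fold change of log2(RPKM + 1), young adult minus infant, for the 47 tested Rab genes grouped by role (colours), with 95% intervals from limma as bars, filled points for an adjusted p under 0.05 and dashed lines at 1.75-fold. Rab27a lies to the right of the dashed lines at 1.04, Rab34 and Rab36 to the left at -1.42 and -1.15, and most others near 0.

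Regulated secretion held the largest rise among the 47 members. Rab27a, which acts on Weibel-Palade bodies and other lysosome-related organelles, was at 4.9, 7.8 and 5.5 RPKM in infant and 16.2, 15.4 and 9.5 in young adult libraries. Every young adult library was above every infant library, and young adult replicate 3 was the lowest of its group. The mean went from 6.07 ± 1.53 to 13.7 ± 3.66 RPKM (SD, n = 3 each), a ratio of 2.26. The highest infant value of Rab27a was in replicate 2, where the endothelial markers also summed highest among infant libraries (3524.4, 4876.0 and 3265.8 RPKM). That sum was 5321.5 to 5766.9 RPKM in young adult libraries. The part of cell composition in the rise of Rab27a was not tested. Rab27a rose by a log2 fold change of 1.04 ± 0.22 (SE, adjusted p = 0.0155). The call was lost when any 1 of infant replicates 1 and 3 or young adult replicates 1 and 2 was left out, with adjusted p from 0.05205 to 0.06997, and the log2 fold change over all left-out fits was 0.91 to 1.27.

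Rab3d, a granule Rab of secretory cells, was at 3.4, 2.5 and 3.1 RPKM in infant and 5.1, 5.4 and 5.2 in young adult libraries. The groups were well apart, and the young adult values had a mean of 5.23 and an SD of 0.153. Its log2 fold change of 0.65 ± 0.11 (SE) had an adjusted p of 0.00874 and stayed under 0.05 with each library left out, but was below the fold threshold. On RPKM without a pseudocount the ratio of means was 1.74.

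The other secretory members went various ways. Rab27b, the close relative of Rab27a, was at 2.1, 2.4 and 2.1 RPKM in infant and 1.6, 1.7 and 1.6 in young adult libraries. Its groups did not overlap, with young adult values lower, and the log2 fold change was -0.28 (adjusted p = 0.0970). Rab3a, best known from synaptic vesicles, was at 7.1, 9.9 and 6.0 against 10.0, 9.0 and 7.7, with overlapping groups (adjusted p = 0.398).

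Rab38, which serves melanosomes and the lamellar bodies of alveolar cells, was at 3.1, 4.1 and 3.8 RPKM in infant and 1.9, 3.2 and 2.2 in young adult libraries. Its relative Rab32 was at 1.3, 1.5 and 1.1 against 1.0, 1.0 and 1.6. Rab44, a large Rab of mast cell granules, was at 2.2, 1.7 and 1.5 against 0.9, 0.8 and 1.5. All 3 overlapped between ages, with adjusted p of 0.0779, 0.762 and 0.0929. The 7 secretory members together summed to 24.1, 29.9 and 23.1 RPKM in infant and 36.7, 36.5 and 29.3 in young adult libraries, which was 2.83% to 3.36% and 3.42% to 4.57% of all Rab RPKM.

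Rab27a (chr9:73044810-73097623, plus strand, GRCm38.p6) and Rab3d (chr9:21907491-21918199, minus strand) both lie on chromosome 9. Since these were the 2 secretory members with an adjusted p under 0.05, the 250 bases before an annotated start of each are shown from the RefSeq promoter table, with GGGCGG or its reverse complement CCGCCC in capitals. The window of Rab27a is chr9:73044560-73044809 on the plus strand and that of Rab3d is chr9:21918184-21918433 on the minus strand:
Rab27a: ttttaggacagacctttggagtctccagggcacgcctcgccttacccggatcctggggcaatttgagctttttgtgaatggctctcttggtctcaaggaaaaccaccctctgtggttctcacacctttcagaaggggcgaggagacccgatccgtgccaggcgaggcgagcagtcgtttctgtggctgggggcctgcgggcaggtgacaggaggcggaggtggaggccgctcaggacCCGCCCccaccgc
Rab3d: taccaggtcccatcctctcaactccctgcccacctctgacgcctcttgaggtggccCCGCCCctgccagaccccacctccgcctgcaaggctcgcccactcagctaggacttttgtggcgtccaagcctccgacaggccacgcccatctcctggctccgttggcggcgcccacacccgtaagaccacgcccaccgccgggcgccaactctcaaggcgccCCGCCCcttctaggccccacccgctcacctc
This Rab27a window, which lies directly before the gene, held 14 CpG and 1 such match, and the Rab3d window 18 CpG and 2 matches. The Rab3d window overlaps the first bases of the gene as placed above. In GENCODE, the bases just after the start were found in a Rab3d transcript other than the one measured, and in no Rab27a transcript. A further Rab27a window in the table, chr9:73063898-73064147, held 5 CpG, 0 such matches, 1 CACGTG and 2 CCAAT. In 49 windows of 40 members found in the table, the median was 18 CpG against 6 over all 32851 windows, and the median GC content 61.6% against 52.4%. GGGCGG was found on either strand in 69.4% of member windows and 32.7% of all, CCAAT in 42.9% and 33.8%, CACGTG in 10.2% and 6.02%, and TATAAA in 4.08% and 12.4%. These matches describe letters only.

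Weibel-Palade body genes stood beside the secretory Rab genes as their cargo and partners. Of 22 such genes tested, 4 were called higher and 1 lower, where 3.33% of all genes were called higher and 8.1% lower. Their log2 fold changes were above 0 in 14 and below 0 in 8. Their median log2 fold change was 0.11, with 9 at an unadjusted and 6 at an adjusted p under 0.05. Over all genes 25.5% had an adjusted p under 0.05 in limma, so at least that share passed without adjustment. Vwf, which encodes von Willebrand factor, was at 33.8, 29.4 and 28.4 RPKM in infant and 157.1, 128.1 and 103.8 in young adult libraries. Vwf rose by 2.03 ± 0.16 on the log2 scale (SE, adjusted p = 0.000642), and no library overlapped.

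Selp, which encodes P-selectin, was at 0.5, 0.4 and 0.5 RPKM in infant and 3.2, 3.2 and 2.7 in young adult libraries. Edn1, the precursor of endothelin, was at 14.3, 18.6 and 13.3 against 41.2, 55.1 and 42.2. Selp passed the filter through young adult libraries only. Tspan7, a tetraspanin, was at 709.9, 1079.6 and 767.6 against 2394.6, 2330.9 and 2018.4. In all 3 the young adult values were higher without overlap, with log2 fold changes of 1.46, 1.53 and 1.42 (adjusted p = 0.000816, 0.00148 and 0.00616). Edn1 and Tspan7, like Rab27a, were highest among infant libraries in replicate 2. Selp and Rab3d were lowest there, and Vwf was highest in replicate 1. Cd63, a tetraspanin of these granules that is also common on late endosomes of other cells, fell from 66.2, 28.3 and 77.0 RPKM to 10.2, 14.5 and 16.0 (log2 fold change -1.90, adjusted p = 0.0101), and its lowest infant value was in replicate 2. The 5 calls were made in each of the 6 fits that left out a library.

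**Figure D3:**
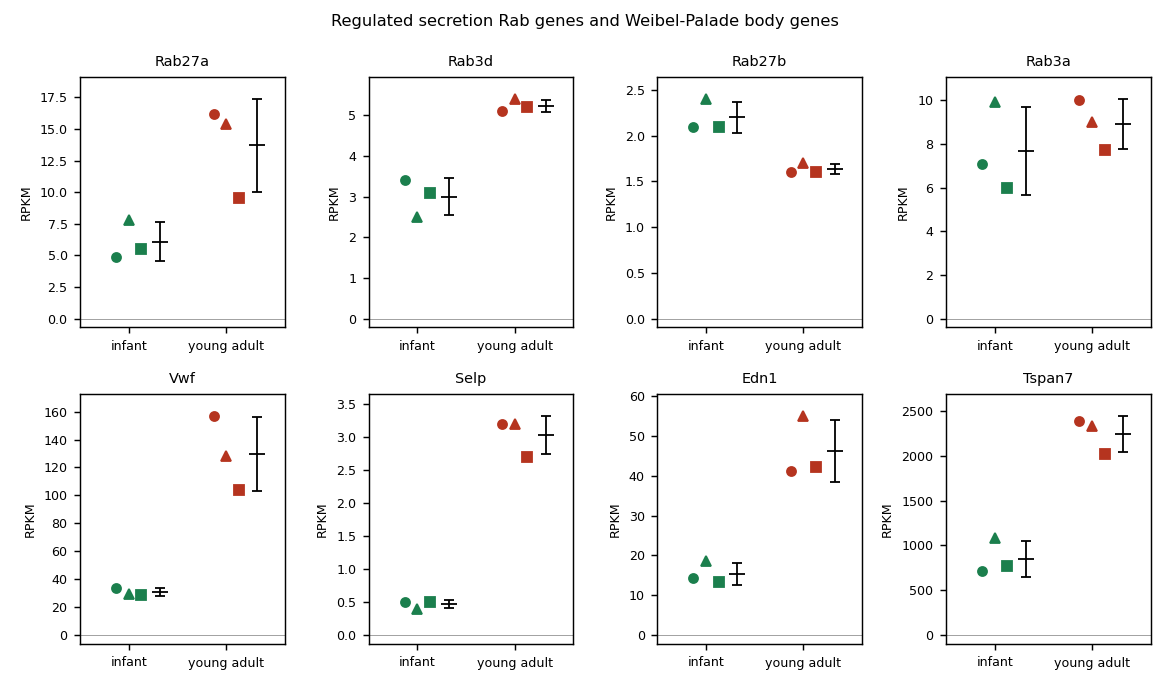
RPKM per library (points, infant in green and young adult in red) and mean ± SD (bars, n = 3) for 4 secretory Rab genes and 4 Weibel-Palade body genes. The groups are separate for Rab27a, Rab3d, Vwf, Selp, Edn1 and Tspan7, all higher in young adult EC, and for Rab27b, which is lower, while Rab3a overlaps. The 4 Weibel-Palade body genes shown are those called higher, and Cd63, which was called lower, is not shown.

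The largest falls were in Rab34 and Rab36, a related pair that places lysosomes near the Golgi, with Rab34 also known from cilia. Rab34 (chr11:78188427-78192193, GRCm38.p6) was at 7.3, 1.9 and 5.9 RPKM in infant and 0.9, 1.0 and 1.3 in young adult libraries. Infant replicate 2 was close to the young adult range and the other 2 infant libraries were far above it. Rab34 fell, with a log2 fold change of -1.42 ± 0.36 (SE, adjusted p = 0.0260). Without infant replicate 2 the value was -1.88 (adjusted p = 6.27e-05), and without any other single library the adjusted p was 0.05955 to 0.09191.

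Rab36 (chr10:75036895-75054748) was at 2.1, 0.5 and 2.1 RPKM in infant libraries and 0.0, 0.1 and 0.2 in young adult libraries, near the rounding step of 0.1. It passed the filter of 1 RPKM through infant libraries only, so a difference was built into its entry to the test. Its infant values were again lowest in replicate 2. The log2 fold change was -1.15 ± 0.29 (SE, adjusted p = 0.0257), and the call was lost under quantile normalization (-0.76, adjusted p = 0.0795). It was -1.50 (adjusted p = 0.000139) without infant replicate 2, and without any other single library the adjusted p was 0.05887 to 0.09528.

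Fibroblast and mural marker levels moved with both genes. The 10 fibroblast markers, of which 9 were called lower, summed to 1320.1, 360.6 and 950.7 RPKM in infant libraries, and the 9 mural markers, of which 8 were called lower, to 232.0, 68.2 and 233.2. Infant replicate 2 was thus the lowest infant library for Rab34, Rab36 and both marker lists, and the young adult libraries were lower still. Gene by gene, 8 of the 10 fibroblast and 8 of the 9 mural markers were lowest there among infant libraries. The fibroblast markers Dcn (7.6, 19.9 and 8.0 RPKM) and Lum (4.1, 14.4 and 4.7) were instead highest in infant replicate 2, and the mural marker Notch3 was at 1.1, 1.2 and 1.6. The part of these cells in the fall of Rab34 and Rab36 was not tested.

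**Figure D4:**
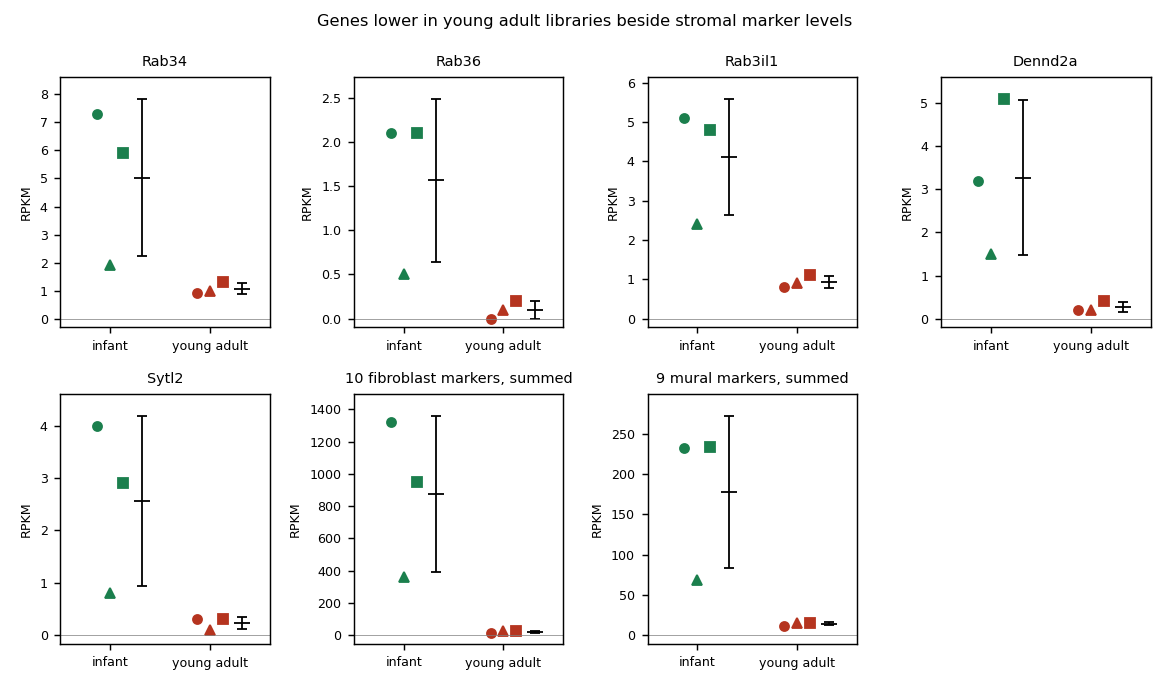
RPKM per library (points, infant in green and young adult in red) and mean ± SD (bars, n = 3) for Rab34, Rab36, 3 regulator or effector genes and the summed fibroblast and mural markers. Infant replicate 2, the green triangle, is the lowest infant library in every panel, and all young adult libraries lie below it.

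Among the 13 ER and Golgi members tested, 6 had an adjusted p under 0.05, 1 higher and 5 lower, where 25.5% of all genes did. Besides Rab34 and Rab36, Rab33b, which links the Golgi to autophagy, was at 9.0, 8.9 and 9.7 RPKM in infant and 6.6, 5.6 and 7.2 in young adult libraries. Rab6a, of retrograde transport through the Golgi, was at 13, 13.6 and 12.5 against 10.1, 8.8 and 9.9. Rab2b was at 13.1, 14.9 and 13.4 against 11.3, 10.8 and 10.9. All 3 were lower in young adult libraries without overlap, by less than the fold threshold, with log2 fold changes of -0.45, -0.41 and -0.30 (adjusted p = 0.0221, 0.0195 and 0.0448).

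Rab19, a little studied Golgi Rab, went the other way, from 1.7, 2.0 and 2.0 RPKM to 3.0, 3.6 and 3.3 (log2 fold change 0.57, adjusted p = 0.0125), with no overlap. The test of Rab19 was missed without young adult replicate 2 (adjusted p = 0.05718). Those of Rab33b and Rab6a were missed when any 1 of infant replicates 1 and 3 or young adult replicates 1 and 2 was left out (adjusted p up to 0.07695 and 0.07706). That of Rab2b was missed in each of the 6 left-out fits (0.07877 to 0.1294). The 13 Golgi and ER members had 4 log2 fold changes above 0 and 9 below, with a median of -0.21. Their summed RPKM was 251.7, 233.5 and 231.3 in infant and 210.0, 213.7 and 222.0 in young adult libraries, so that all young adult libraries were lower.

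Late endosome and lysosome members gave 1 difference in each direction. Rab7l1, named Rab29 in RefSeq and known for its tie to the kinase LRRK2 at lysosomes, rose from 7.5, 10.1 and 7.4 RPKM to 11.1, 11.6 and 13.2 (log2 fold change 0.48, adjusted p = 0.0357). Rab20, a Rab of maturing phagosomes, was at 1.4, 1.1 and 0.9 against 0.4, 0.4 and 0.2 (log2 fold change -0.68, adjusted p = 0.0197). Neither overlapped and neither passed the fold threshold on the log2(RPKM + 1) scale, which understates the change of a gene as low as Rab20. Like Rab36, Rab20 passed the filter through infant libraries only. The test of Rab7l1 held only without infant replicate 2, with adjusted p up to 0.114 otherwise. That of Rab20 was missed without infant replicate 1 or any 1 young adult replicate, with adjusted p up to 0.08093.

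The early endosome (6 members), recycling (7), surface delivery (4) and cilium (4) groups each had 0 members with an adjusted p under 0.05 in limma, where 25.5% of all genes did. They had 1, 1, 2 and 2 with an unadjusted p under 0.05, as did at least 25.5% of all genes. No difference between role groups was tested. Rab5c, of early endosome fusion, was at 6.8, 8.5 and 8.5 RPKM in infant and 9.3, 11.6 and 10.5 in young adult libraries. Rab10, which moves vesicles to the surface, was at 16.5, 18.5 and 16.7 against 14.3, 14.0 and 14.3. Rab13, of cell junctions, was at 7.6, 5.9 and 9.3 against 5.6, 4.6 and 6.1. Rab5c was higher and Rab10 lower in the young adult libraries without overlap (adjusted p = 0.0653 and 0.0644), and Rab13 overlapped (adjusted p = 0.105).

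Rab28, a Rab of ciliated cells, was the closest to the threshold, at 15.1, 19.0 and 17.4 RPKM in infant and 12.6, 12.2 and 14.4 in young adult libraries, with no overlap (log2 fold change -0.37, adjusted p = 0.0511). Rab25, an epithelial Rab chosen here after its values were seen, was low, at 1.0, 1.7 and 2.1 against 0.2, 0.8 and 1.2 RPKM (adjusted p = 0.119). Among young adult libraries, the summed epithelial markers and Rab25 were both lowest in replicate 1 and highest in replicate 3. In infant libraries both were lowest in replicate 1, but Rab25 was highest in replicate 3 and the marker sum in replicate 2 (11348.0 RPKM). The marker Hopx was called higher in young adult libraries, while the other 9 epithelial markers had a log2 fold change below 0. The part of epithelial cells was not tested. The remaining 18 members ranged from a log2 fold change of -0.44 to 0.24, with adjusted p of 0.0856 or more where tested.

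Close relatives were also set against each other within each library, which largely removes the scaling of the library. In 5 of 14 pairs the log2 ratios did not overlap between ages, which gives an exact permutation p of 0.1, the smallest the design allows, and an adjusted p of 0.28. Of all single genes 43.4% did not overlap, and no such share was computed for pairs of other genes. The ratio of Rab27a to Rab27b was the most different, at 0.93, 1.37 and 1.07 in infant and 2.73, 2.60 and 2.01 in young adult libraries on the log2(RPKM + 1) scale. On RPKM the mean of Rab27a was 2.76 times that of Rab27b in infant and 8.39 times in young adult libraries. Rab5a and Rab5b were lower relative to Rab5c in young adult libraries, by -0.47 and -0.37, and Rab6a relative to Rab6b by -0.55, while Rab2a was higher relative to Rab2b by 0.37. The 5 pairs use 9 genes, of which Rab5c enters 2 of them. Each of these pairs holds a gene whose own groups did not overlap (Rab27a, Rab27b, Rab5c, Rab6a or Rab2b), so the ratios are not separate from those differences.

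**Figure D5:**
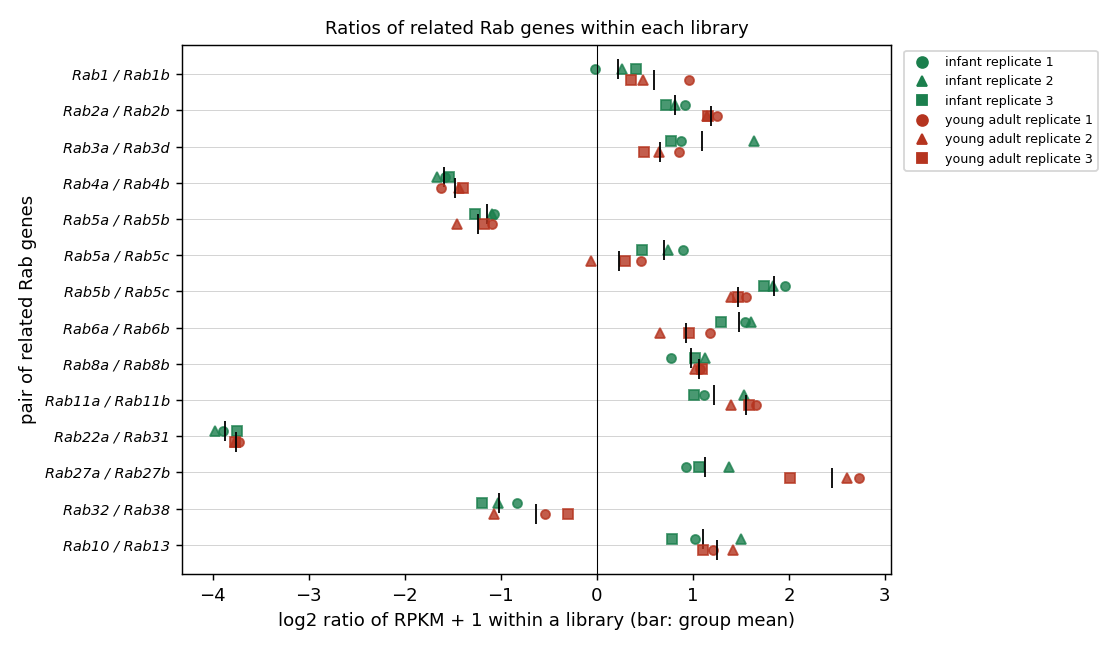
Log2 ratio of RPKM + 1 between related Rab genes within each library (points, infant in green and young adult in red, vertical bars for group means) for 14 pairs. The Rab27a to Rab27b ratio shifts furthest, from a mean of 1.12 to 2.45, while Rab4a to Rab4b and Rab8a to Rab8b overlap.

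Regulators of Rab proteins were read against the 3.33% of all genes called higher and 8.1% called lower, without a test of the difference. Of 43 exchange factor genes tested, 0 were called higher and 2 lower. The median log2 fold change was 0.03, with 10 at an unadjusted and 5 at an adjusted p under 0.05. Over all genes 25.5% had an adjusted p under 0.05, and at least that share an unadjusted one. Rab3il1, an exchange factor of Rab3 and Rab8 proteins, was at 5.1, 2.4 and 4.8 RPKM in infant and 0.8, 0.9 and 1.1 in young adult libraries. Dennd2a, an exchange factor of Rab9, was at 3.2, 1.5 and 5.1 against 0.2, 0.2 and 0.4. Both fell without overlap, by log2 fold changes of -1.36 and -1.66 (adjusted p = 0.00683 and 0.00893), with infant replicate 2 again the lowest infant library beside the stromal markers. Dennd2a passed the filter through infant libraries only.

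Of 32 GTPase-activating protein genes, 0 were called in limma, with a median log2 fold change of -0.11. There were 11 at an unadjusted and 7 at an adjusted p under 0.05, where at least 25.5% of all genes passed either bound. Among 7 genes of prenylation and of GDP dissociation 0 were called as well, with 4 at an unadjusted and 3 at an adjusted p under 0.05. The members of this group given next were chosen after their values were seen. Rabggta, the alpha subunit of the enzyme that prenylates Rab proteins, was at 24.0, 24.3 and 22.9 RPKM in infant and 32.1, 33.7 and 34.0 in young adult libraries. It was higher without overlap, below the fold threshold (log2 fold change 0.47, adjusted p = 0.00941), while its partner Rabggtb overlapped at 16.7, 22.5 and 20.6 against 18.3, 19.7 and 22.7. Rabac1, which acts on prenylated Rab proteins at membranes, was higher at 75.1, 90.3 and 93.6 RPKM against 48.8, 60.9 and 44.0 in infants (log2 fold change 0.75, adjusted p = 0.0126). Chml, an escort protein for prenylation, was lower at 1.1, 1.2 and 1.3 against 2.2, 1.9 and 1.9 (log2 fold change -0.45, adjusted p = 0.0293). The test of Rabac1 was missed without young adult replicate 2 (adjusted p = 0.06104), and that of Chml held only without infant replicate 2, with adjusted p up to 0.1035 otherwise. Gdi2, which holds GDP-bound Rab proteins in the cytosol, missed the test at a log2 fold change of -0.16 (adjusted p = 0.293).

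Of 42 effector genes, 2 were called higher and 1 lower. The median log2 fold change was -0.09, with 13 at an unadjusted and 7 at an adjusted p under 0.05. At least 25.5% of all genes passed either bound. Exoc6, the exocyst subunit that binds Rab11, was at 9.3, 11.7 and 11.1 RPKM in infant and 25.5, 26.9 and 22.0 in young adult libraries. Sh3tc2, a Rab11 effector known from Schwann cells, was at 13.6, 16.9 and 12.4 against 32.2, 28.9 and 26.6. Both rose without overlap, by log2 fold changes of 1.14 and 0.99 (adjusted p = 0.00148 and 0.00331), and were called in each of the 6 left-out fits. Rab11a itself had a log2 fold change of 0.20 with a 95% interval from -0.11 to 0.51.

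Genes that act on Rab27 proteins were looked at after their values had been seen. Madd, an exchange factor of Rab3 and Rab27 proteins, was at 5.2, 6.1 and 4.9 RPKM in infant and 7.7, 10.5 and 8.6 in young adult libraries. Tbc1d10a, a GTPase-activating protein of Rab27a, was at 5.0, 5.3 and 4.0 against 7.8, 9.0 and 8.1. Both were higher without overlap and below the fold threshold, with log2 fold changes of 0.63 and 0.69 (adjusted p = 0.0150 and 0.00755). The test of Tbc1d10a held with each library left out, while that of Madd was missed without infant replicate 1, infant replicate 3 or young adult replicate 2 (adjusted p up to 0.05581).

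Sytl2, a Rab27 effector, fell from 4.0, 0.8 and 2.9 RPKM to 0.3, 0.1 and 0.3 (log2 fold change -1.41, adjusted p = 0.0239). Infant replicate 2 was its lowest infant library, as for Rab34, and the call was made in 1 of 6 left-out fits, the one without infant replicate 2, with adjusted p up to 0.09197 in the others. It was also lost under quantile normalization (-1.02, adjusted p = 0.0679), and Sytl2 passed the filter through infant libraries only. Sytl4, a Rab27 effector on Weibel-Palade bodies, overlapped at 0.7, 0.6 and 1.0 against 1.3, 0.8 and 0.8. Myrip, which ties Rab27a on these granules to actin, was below the filter at 0.2, 0.1 and 0.1 against 0.9, 0.7 and 0.5.

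The Arf family, another family of traffic GTPases, served as a comparison. Of 26 genes tested, 2 were called higher (Arl4a and Arl4d, 1.69 and 1.56 on the log2 scale) and 2 lower (Arl4c and Arl5b, -1.08 and -1.13), with a median of -0.19. Over all genes 3.33% were called higher and 8.1% lower. In 9 of the 26 the adjusted p in limma was under 0.05, against 25.5% of all genes. In 16 the groups did not overlap, against 43.4% of all genes. Arl4c, which passed the filter through infant libraries only, was below the fold threshold under quantile normalization (-0.80). The call of Arl4a was missed without young adult replicate 2 (adjusted p = 0.05147). The share called in either family was not tested against the other.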

How the data were processed

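Poly(A)-primed RNA-seq of sorted lung EC was analysed in 6 libraries, grouped by title. The authors amplified cDNA with the SMARTer Ultra Low kit, sequenced paired ends, aligned to mm10 with STAR allowing up to 10 mismatches, and tested RefSeq genes with DESeq2. The STAR version and the RPKM program are not given in the sources used here. The deposited values were RPKM of 17241 transcripts, rounded to 0.1, so depth and counting error are unknown.

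The count test of the study was therefore replaced by limma 3.58.1 (R 4.3.3) on log2(RPKM + 1), with lmFit, eBayes with an intensity trend, age as the only term and adjustment over 12458 genes. The filter and the 1.75-fold threshold follow the study. The code was tested on simulated data. Fold changes of low genes are understated by the pseudocount. 24 transcript symbols turned into dates were restored. Gene positions are from RefSeq GRCm38.p6 (mm10 coordinates), and all 48 members matched by accession (46) or symbol.

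The members and gene lists were chosen with earlier results of these data known. Genes given by library are members called, with an adjusted p under 0.05, among the 10 largest changes at a mean of at least 5 RPKM, among the 10 highest means, or of regulated secretion at a mean of at least 1 RPKM, and called genes of each list. Rab25, Rabggta, Rabggtb, Rabac1, Chml, Gdi2, Madd, Tbc1d10a, Sytl4 and Myrip are outside this rule and were chosen after their values were seen. The series calls its replicates independent without saying how many animals each held, so p-values measure the spread between these libraries. Alternatives were other pseudocounts, filters, scalings, transcript choice, variance models, a replicate block and leaving out each library. Listed genes that had no value were not analysed here.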

Additional observations from a re-analysis of the deposited data

How the results depend on the processing

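The count of called Rab genes (3) was within 1.5 times under every other setting except a pseudocount of 5, where limma called 0 (19 at an unadjusted p under 0.05), and leaving out libraries, where it was 0 to 3. Rab genes with an adjusted p under 0.05 (10) numbered 1 to 14 with a library left out. The 10 called genes among regulators, effectors and Weibel-Palade body genes became 6 at a pseudocount of 5 and 9 to 16 with a library left out. Under quantile normalization the 3 called Rab genes were 2 higher and 1 lower instead of 1 and 2, since Rab3d passed the fold threshold (0.82) and Rab36 missed the test (-0.76). Sytl2 (-1.02) and Arl4c (-0.80) lost their calls there too, and the median of all genes moved from -0.07 to 0.04. Rescaling without the globin genes moved that median to -0.16 and the Rab median, -0.08, to -0.16. Signs turned in 4 genes near 0. Rab7 (-0.015) was at 0.052 under median scaling and 0.023 with array weights, and between -0.070 and 0.082 with a library left out. Rab1 (0.046) was at -0.015 under quantile normalization and -0.059 without globin. Rab32 (-0.07) was at 0.25 under quantile normalization. Rab4b (0.0051) was at -0.055 under quantile normalization and -0.099 without globin, and between -0.057 and 0.048 with a library left out. At a pseudocount of 0.1, Rab20 was called (-1.53), and at a pseudocount of 5, Rab27a (0.75), Rab34 (-0.68) and Rab36 (-0.35) were below the fold threshold, as were Rab3il1 (-0.60), Dennd2a (-0.63), Sytl2 (-0.51), Selp (0.55), Arl4c (-0.41) and Arl5b (-0.78). The cause of these differences between settings was not tested. With the replicate block, 3 Rab genes were called (1 higher, 2 lower) and 8 had an adjusted p under 0.05. The numbers are not known to pair the samples: deviations of same-numbered libraries from their group means correlated at 0.03, -0.11 and -0.02, and not every library correlated best with its own number. Unknown depth, rounding to 0.1 and 3 libraries a group limit all values, most for members under 1 RPKM.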
